A study of Mus musculus with 48 samples.

Results

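CD8+ T cells sorted from B16F10 melanomas were compared between Yap-cKO and WT mice, using the 8 libraries labelled as CD8 TILs (tumor-infiltrating lymphocytes), 4 of each genotype, out of the 48 libraries of the series. Yap-cKO mice carried a Yap gene flanked by loxP sites, a Cre transgene under the Cd4 promoter and a Cre-dependent EYFP reporter. This Cre acts in the thymus at the stage when precursors express both coreceptors, so that CD4+ and CD8+ T cells both lose Yap while tumor cells and other host cells keep it. WT mice were littermate controls. All mice were C57BL/6J and between 6 and 10 weeks old, and both genotypes were inoculated under the skin with B16F10, a pigmented melanoma line of the same strain before tumors were harvested. The labels do not say which animal each library came from or whether animals were pooled, so p-values measure the spread between these libraries.

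Yap is a transcriptional coactivator that the kinases of the Hippo pathway keep in the cytoplasm. In the nucleus it acts with its relative Taz (gene Wwtr1) through the DNA-binding Tead factors, and its best known targets, such as Ccn1 and Ccn2, are genes of adherent cells. CD8+ T cells that enter a tumor depend on signals from the T-cell receptor and costimulatory receptors, kill through granzymes, perforin and Fas ligand, and take on inhibitory receptors when stimulation persists.

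Each CD8 TIL library held between 12656302 and 18471070 counts on genes, and 3 counts corresponded to 0.162 to 0.237 CPM (counts scaled to library size with TMM factors). The genes that reached 10 counts in 4 or more of the 8 libraries, 14116 in all, were tested with edgeR's quasi-likelihood test, which gave every adjusted p below (Benjamini-Hochberg). A gene was called at an adjusted p under 0.05 with an absolute log2 fold change above 1. Fold changes are Yap-cKO over WT. Values after ± are SE for log2 fold changes and SD for CPM, with n = 4 libraries per genotype. Levels quoted for node CD8+ cells and for tumor CD45+ cells are means over 8 libraries each, scaled over all 48.

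The markers that define the sorted cells were present in all 8 libraries and were low in part of the WT group. Cd8a, the alpha chain of the coreceptor, was at 289, 245, 731 and 634 CPM in WT and at 772, 1110, 731 and 808 CPM in Yap-cKO libraries. Cd8b1, the beta chain, was at 467, 489, 1080 and 855 CPM in WT and at 1230, 1400, 1250 and 1470 CPM in Yap-cKO libraries. Cd3e, a signaling chain of the T-cell receptor complex, was at 202, 273, 961 and 612 CPM in WT and at 902, 1190, 1040 and 742 CPM in Yap-cKO libraries. WT replicates 1 and 2 were the lowest for all 3 genes, and the genotypes overlapped for Cd8a and Cd3e but not for Cd8b1. None of the 3 passed the test, with log2 fold changes of 0.85 ± 0.366, 0.89 ± 0.3 and 0.92 ± 0.448 (adjusted p = 0.133, 0.0716 and 0.173). Cd4, the coreceptor of the other T-cell lineage, did not exceed 6.56 CPM in any library.

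RNA of tumor and stromal cells differed between the genotypes more than T-cell markers did. The 15 genes of the melanoma list summed to 18000, 13100, 4920 and 14600 CPM in WT and to 58.2, 684, 3150 and 1530 CPM in Yap-cKO libraries. The 16 fibroblast and pericyte genes summed to 319, 1500, 267 and 143 CPM in WT and to 9.02, 24.7, 17.4 and 44 CPM in Yap-cKO libraries. The 15 endothelial genes summed to 711, 3470, 853 and 271 CPM in WT and to 112, 88.5, 131 and 99.7 CPM in Yap-cKO libraries. All 3 sums were lower in every Yap-cKO library than in any WT library. WT replicate 2 was the highest for stroma and vessels, WT replicate 3 was the lowest WT library for melanoma, and Yap-cKO replicate 1 held the least melanoma RNA of all. In node CD8+ cells, scaled over all 48 libraries, the melanoma list summed to between 15.7 and 26.9 CPM.

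Sums of the T-lineage list and of the macrophage and monocyte list differed in the other direction. The 15 T-lineage genes summed to 2090, 2510, 6470 and 5070 CPM in WT and to 8360, 7390, 7550 and 7460 CPM in Yap-cKO libraries. The 19 macrophage and monocyte genes summed to 2000, 1250, 2030 and 2250 CPM in WT and to 2650, 3870, 4280 and 3190 CPM in Yap-cKO libraries. Neither sum overlapped between genotypes. Dendritic cell genes summed to between 630 and 1660 CPM in WT and to between 1100 and 2400 CPM in Yap-cKO, B cell genes to between 102 and 240 CPM and between 237 and 322 CPM, and neutrophil genes to between 14 and 138 CPM and between 17.1 and 48.7 CPM. On the scale of all 48 libraries, the macrophage and monocyte list also summed to 694 to 1560 CPM in WT node CD8+ cells. It summed to 440 to 1020 CPM in Yap-cKO node CD8+ cells, and to at most 57.4 CPM in node CD4+ cells. This sum is therefore not a measure of macrophage content alone, and the source of the node RNA was not tested. In a bulk library, fewer cells of a type and less RNA per cell cannot be told apart. The part of these differences in the gene results that follow was not tested. Each T-cell list is therefore also given after scaling every library on its T-lineage counts in place of TMM.

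**Figure D1:**
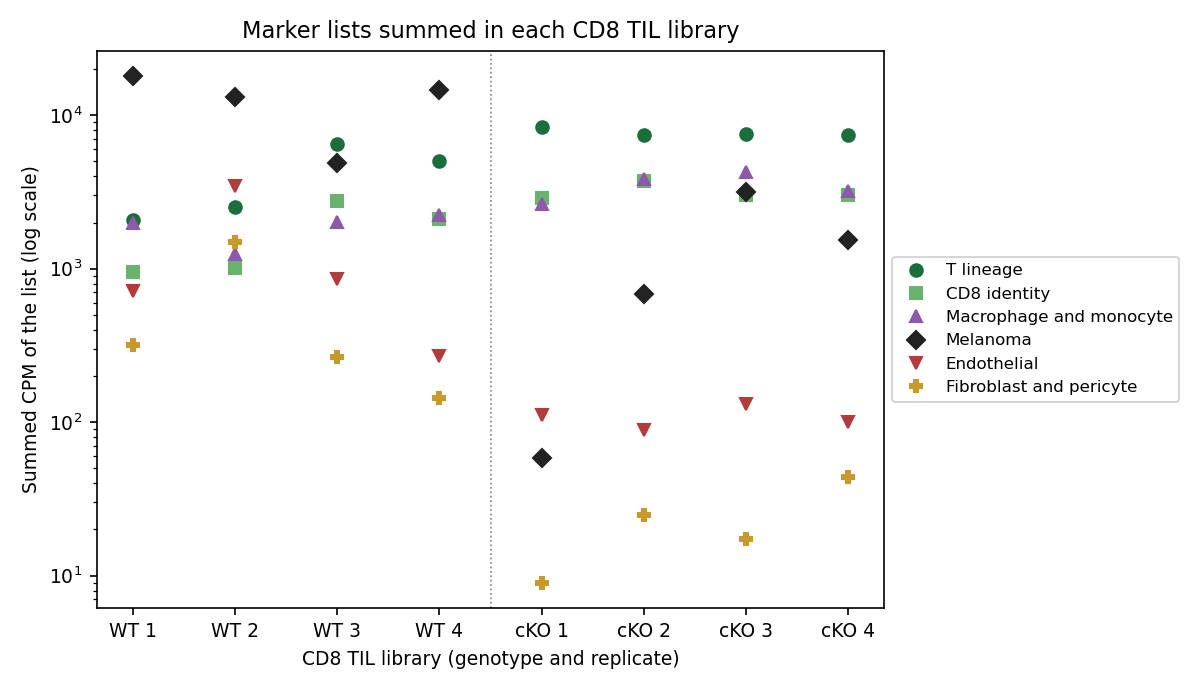
Summed CPM (log axis) of marker lists in each of the 8 CD8 TIL libraries, with 1 symbol per list. Melanoma, endothelial and fibroblast sums are higher in every WT library than in any Yap-cKO library, while T-lineage and macrophage sums are lower.

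Across genes, 1718 were called (12.2% of those tested), 428 higher (3.03%) and 1290 lower (9.14%) in CD8 TILs of Yap-cKO mice. An unadjusted p under 0.05 was found for 4791 genes (33.9%), and the CPM of 3005 genes (21.3%) did not overlap between genotypes. The number of calls depended on single libraries. Without Yap-cKO replicate 2 it was 1, the ribosomal protein pseudogene Rps3a3, with 4004 genes at an unadjusted p under 0.05, and without WT replicate 3 it was 2582. It was 324, 351 and 697 without WT replicates 1, 2 and 4, and 942, 2147 and 718 without Yap-cKO replicates 1, 3 and 4. With WT replicates 3 and 4, the WT libraries richest in T-lineage RNA, as the only WT libraries, 2 genes were called (Lpl and Rps3a3). The 1489 genes called above that could be tested all kept their direction. The same libraries had entered the fit that called these genes, so the kept direction is not independent support for the calls. With the mean level of the melanoma, fibroblast and endothelial lists as a covariate edgeR called 0 genes, and 129 had an unadjusted p under 0.05. Genotype held a share of 0.814 of the variance of that covariate, so genotype and covariate cannot be told apart in these libraries.

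Called genes shared an order of libraries within each genotype. Among the 1290 genes called lower, WT replicate 3 was the lowest WT library for 63.6% and WT replicate 2 the highest for 55.7%, against 27.1% and 25.1% of all tested genes. Yap-cKO replicate 1 was the lowest of its group for 69.5% and replicate 3, which held the most melanoma RNA of its group, the highest for 67.4%, against 34.6% and 27.6% of all tested genes. Among the 428 genes called higher, WT replicate 3 was the highest WT library for 68.2% and Yap-cKO replicate 1, which held the most T-lineage RNA, the highest of its group for 61.0%, against 28.3% and 28.9% of all tested genes.

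Each gene was placed by its level in populations outside the contrast. Genes at 1 CPM or more in node CD8+ cells and no higher in tumor CD45+ cells are called node T genes here. Of 6858 tested node T genes, 240 were called higher and 110 lower. Of 4703 genes at 1 CPM or more in node CD8+ cells but higher in tumor CD45+ cells (shared), 140 were called higher and 422 lower. Of 1362 genes under 1 CPM in node CD8+ cells and at 1 CPM or more in tumor CD45+ cells, 45 were called higher and 514 lower. The tumor CD45+ libraries also held melanoma RNA. The melanoma list summed there to between 1170 and 1950 CPM in WT and between 143 and 545 CPM in Yap-cKO, scaled over all 48 libraries. A level in these libraries therefore does not place a gene in CD45+ cells alone. Of 1193 genes under 1 CPM in both, 3 were called higher and 244 lower. Node T genes made up 56.1% of the genes called higher and 8.53% of those called lower. Among node T genes 3.5% were called higher, close to the 3.03% of all tested genes. The share called lower among them was 1.6%, beside 9.14% of all tested genes.

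**Figure D2:**
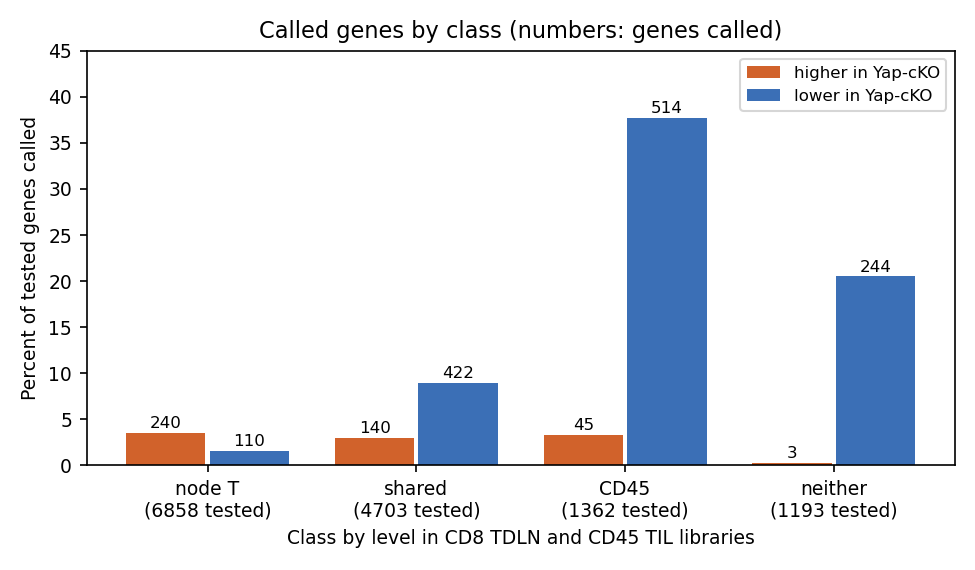
Percent of tested genes called higher (orange) or lower (blue) in Yap-cKO CD8 TILs, by level of the gene in CD8 TDLN and CD45 TIL libraries, with the number of called genes above each bar. The tallest bar is the 37.7% called lower among genes at 1 CPM or more in tumor CD45+ libraries and under 1 CPM in node CD8+ cells. The tumor CD45+ libraries also held melanoma RNA.

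Yap1, the deleted gene (chromosome 9, 7931999 to 8004596, minus strand, GRCm38), was lower in Yap-cKO CD8 TILs. It was at 20.2, 30.4, 15.3 and 28.3 CPM in WT and at 2.72, 4.85, 7.32 and 5.38 CPM in Yap-cKO libraries. The groups did not overlap, and the log2 fold change was -2.21 ± 0.375 (adjusted p = 0.018, and p = 0.0286 by a two-sided exact permutation test of the CPM, the smallest that 4 against 4 libraries allow). Within the Yap-cKO group the order of Yap1 was that of the melanoma sum, lowest in replicate 1 and highest in replicate 3. Within the WT group the orders differed. Replicate 3 was the lowest for both, but replicate 1, with the most melanoma RNA, was below replicates 2 and 4 for Yap1. In node CD8+ cells Yap1 was at 2.59, 2.23, 2.09 and 2.37 CPM in WT and at 1.82, 1.13, 4.53 and 1.5 CPM in Yap-cKO mice, and the log2 fold change there was -0.01 (adjusted p = 0.999). Its counts were summed over whole transcripts and do not separate the floxed part of the gene. With the melanoma and stromal covariate its log2 fold change in CD8 TILs was -1.03 (adjusted p = 1.0).

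Partners of Yap were lower as well, and the Yap targets that were called were all lower. Of 5 tested genes among Yap, Taz and the Tead factors, 5 were called lower, with a median log2 fold change of -3.25 beside 0.08 over all tested genes. Wwtr1 (Taz) was at 85.4, 183, 47.2 and 41 CPM in WT and at 0.729, 2.26, 10.8 and 6.37 CPM in Yap-cKO libraries. It fell by 4.14 on the log2 scale, and was at 0.0597 CPM in node CD8+ cells. Tead2 fell from 12.8 to 1.83 CPM. Tead4 was at 4, 6.48, 1.47 and 2.85 CPM in WT and at 0.133, 0.0646, 0.0572 and 0.212 CPM in Yap-cKO libraries, where no Yap-cKO library held more than 3 of its counts. Of 16 tested Yap target genes, 6 were called lower and 0 higher (median -2.34).

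Ccn2, a matricellular protein of connective tissue (chromosome 10, 24595442 to 24598683, plus strand), had the largest difference among the targets. It was at 49, 318, 29.6 and 71.7 CPM in WT and at 0, 0.646, 0.915 and 0.708 CPM in Yap-cKO libraries (log2 fold change -7.66 ± 1.02, adjusted p = 0.018). WT replicate 2 was the highest, as for the stromal and endothelial sums, and Ccn2 was at 0.105 CPM in node CD8+ cells. Amotl1 and Amotl2, scaffolds that bind Yap, changed by -3.03 ± 0.605 and -2.75 ± 0.69, and Arhgef17, a guanine nucleotide exchange factor, by -4.71 ± 1.15. In node CD8+ cells these 3 were at 0.344, 0.144 and 0.171 CPM. Melanoma, stromal and endothelial RNA moved in the same direction as all of these genes.

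The kinases and regulators of the Hippo pathway, several of which T cells express, held calls in both directions. Of 18 tested kinases and regulators, 3 were called higher and 1 lower (median 0.27). Stk4 (Mst1), a core kinase, rose from 173 ± 55 to 393 ± 123 CPM (1.19 ± 0.304, adjusted p = 0.0333). Its binding partner Rassf5, which acts in integrin adhesion, rose from 173 to 412 CPM, and the upstream kinase Taok3 rose from 50.5 to 122 CPM. Scaled on T-lineage counts these 3 differed by 0.1, 0.32 and 0.11 and did not pass. Wwc2, a relative of the Kibra adaptor, fell from 23.8 to 5.28 CPM.

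Promoters are shown for 4 of these genes that hold the core of the Tead binding motif, and for Klrk1 as a T-cell gene that was called higher. Each is read from RefSeq sequence of GRCm38.p6, from 250 bases before to 50 after the start site, with the motif GGAATG or its reverse complement CATTCC in capitals.
Yap1, chr9:8004547-8004846, minus strand: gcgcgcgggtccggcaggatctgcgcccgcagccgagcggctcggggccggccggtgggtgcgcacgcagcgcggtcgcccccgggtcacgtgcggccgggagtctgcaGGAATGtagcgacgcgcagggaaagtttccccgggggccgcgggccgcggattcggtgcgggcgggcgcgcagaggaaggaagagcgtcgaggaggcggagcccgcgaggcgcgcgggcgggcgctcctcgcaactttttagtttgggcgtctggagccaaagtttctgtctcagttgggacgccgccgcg
Wwtr1, chr3:57575827-57576126, minus strand: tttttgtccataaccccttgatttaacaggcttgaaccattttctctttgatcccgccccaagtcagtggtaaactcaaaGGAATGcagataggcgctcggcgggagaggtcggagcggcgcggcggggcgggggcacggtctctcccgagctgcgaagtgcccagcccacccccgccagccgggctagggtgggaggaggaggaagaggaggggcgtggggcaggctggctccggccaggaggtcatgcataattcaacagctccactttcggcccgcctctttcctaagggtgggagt
Amotl2, chr9:102717554-102717853, plus strand: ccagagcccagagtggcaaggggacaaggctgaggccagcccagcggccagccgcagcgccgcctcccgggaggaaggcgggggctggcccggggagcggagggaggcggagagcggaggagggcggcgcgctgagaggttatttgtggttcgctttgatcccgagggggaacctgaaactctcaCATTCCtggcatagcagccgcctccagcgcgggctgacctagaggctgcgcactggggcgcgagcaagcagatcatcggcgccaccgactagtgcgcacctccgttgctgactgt
Wwc2, chr8:47990495-47990794, minus strand: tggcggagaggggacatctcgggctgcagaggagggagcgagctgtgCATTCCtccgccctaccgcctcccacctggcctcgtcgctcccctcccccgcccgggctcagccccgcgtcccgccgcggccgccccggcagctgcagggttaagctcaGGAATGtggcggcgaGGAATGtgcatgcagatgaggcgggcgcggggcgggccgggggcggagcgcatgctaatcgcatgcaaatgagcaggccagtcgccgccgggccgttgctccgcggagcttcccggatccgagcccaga
Klrk1, chr6:129623815-129624114, minus strand: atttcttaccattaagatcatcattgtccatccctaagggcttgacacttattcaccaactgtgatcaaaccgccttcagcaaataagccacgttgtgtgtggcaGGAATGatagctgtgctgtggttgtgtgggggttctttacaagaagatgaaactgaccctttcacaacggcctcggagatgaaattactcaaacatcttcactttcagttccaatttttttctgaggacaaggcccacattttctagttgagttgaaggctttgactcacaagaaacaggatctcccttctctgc
The motif begins 141 bases before the start of Yap1, 170 before that of the printed Wwtr1 promoter and 145 before that of Klrk1. It begins 65 bases before the start of Amotl2 (on the other strand), and 203 (other strand), 94 and 79 before that of Wwc2. Wwtr1 had 2 listed promoters, and the printed promoter was picked by its number of motifs. A promoter was matched by symbol for 10487 of the tested genes, and 14.1% of them held the motif on either strand. The share was 12.8% of the 321 genes called higher and 17.9% of the 976 called lower that had a promoter. With genes of a single listed promoter the shares were 11.4%, 9.64% and 15.0%, and 14.7% of all 32851 listed promoters held it. The promoter of Ccn2 was not matched. A match describes letters, not binding.

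Genes of T-cell receptor signaling that were called were all higher in Yap-cKO CD8 TILs, where T-lineage RNA was higher too. Of 25 tested genes of the list, 9 were called higher and 0 lower, with a median of 1.1. In the T-lineage list 1 of 15 was called, Themis (1.6 ± 0.317), which tunes receptor signals in thymocytes, and the median was 0.87. After scaling on T-lineage counts the medians were 0.12 and 0.04, and no member of either list was called. Rasgrp1, which activates Ras below the receptor, was at 31.9, 53.6, 88.8 and 56.7 CPM in WT and at 278, 217, 150 and 137 CPM in Yap-cKO libraries (1.76 ± 0.342, adjusted p = 0.0185). The groups did not overlap, and the T-lineage scaled difference was 0.71 ± 0.379 (adjusted p = 0.137). Vav3, an exchange factor, rose from 9.83 to 32 CPM, the calcium-regulated factor Nfatc3 from 88 to 227 CPM, and the adhesion and costimulatory receptor Cd226 from 36.8 to 104 CPM.

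**Figure D3:**
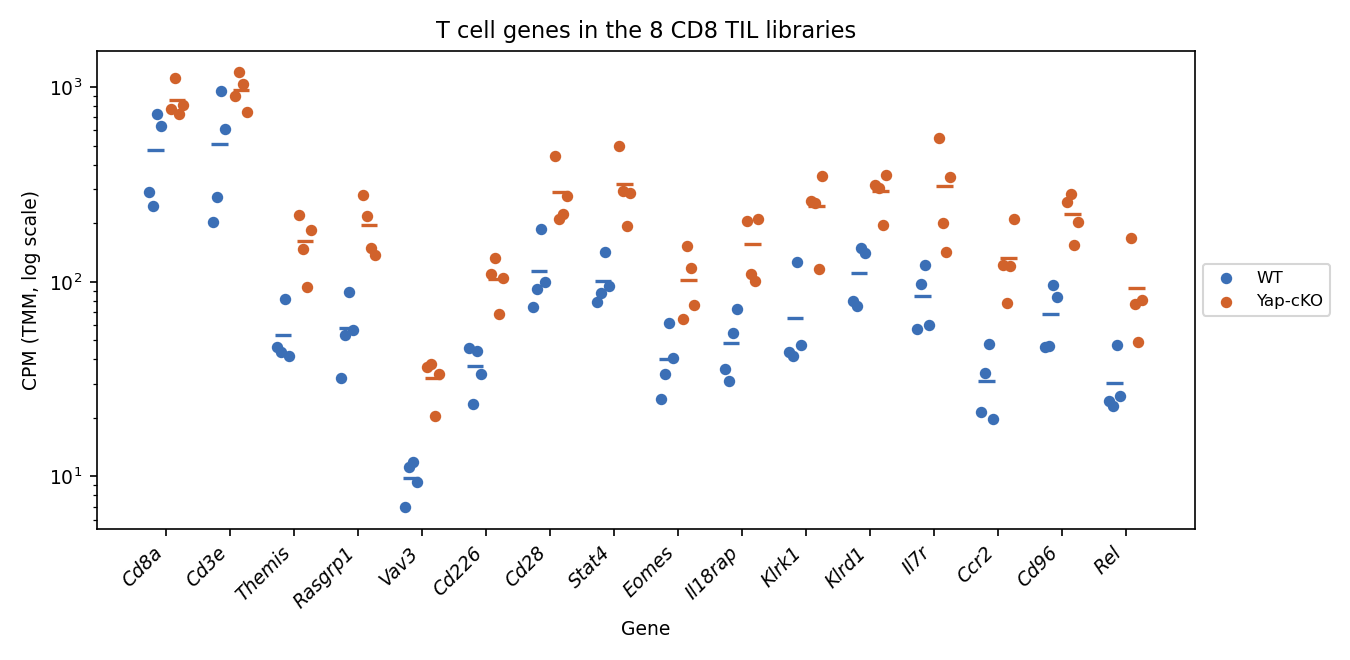
CPM (log axis) of T-cell genes in each WT (blue) and Yap-cKO (orange) CD8 TIL library, with the group mean as a short line. WT replicate 3 reached the lowest Yap-cKO library for Cd8a at 731 CPM, and the groups did not overlap for Rasgrp1, Vav3 or Stat4.

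Called costimulatory receptors and receptors of NK type were all higher too. Of 12 costimulatory genes, 5 were called higher and 0 lower (median 1.16, and 0.14 after T-lineage scaling). Cd28, the main costimulatory receptor, was at 74.3, 92.1, 187 and 100 CPM in WT and at 442, 211, 222 and 277 CPM in Yap-cKO libraries (1.35 ± 0.345, adjusted p = 0.0333), with no overlap. Slamf1, which binds itself on neighboring cells, rose from 16.3 to 53 CPM. Cd40lg, the ligand by which helper T cells engage CD40, rose from 1.4 to 6.08 CPM. Of 11 NK-type receptors, 4 were called higher and 0 lower (median 1.37, and 0.41 after T-lineage scaling).

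Klrk1 (NKG2D), a receptor for stress-induced ligands (chromosome 6, 129610323 to 129623864, minus strand), had the largest difference of that list. It was at 43.8, 41.4, 127 and 47.2 CPM in WT and at 261, 254, 117 and 349 CPM in Yap-cKO libraries (1.92 ± 0.443, adjusted p = 0.0249). WT replicate 3 and Yap-cKO replicate 3 overlapped, and the T-lineage scaled difference was 0.94 ± 0.425 (adjusted p = 0.084). Klrd1 (CD94) rose from 111 to 292 CPM, and the genes of its NKG2 partners Klrc1 (1.54 ± 0.357) and Klrc2 (1.61 ± 0.372), which are close paralogs and could share reads, rose as well. Klrk1 was at 6.79 CPM in node CD8+ cells and at 122 CPM in tumor CD45+ cells.

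Called effector and inhibitory genes were all higher, and several of the best known members did not pass. Of 14 tested cytotoxic genes, 2 were called higher and 0 lower (median 0.89, and -0.01 after T-lineage scaling). Fasl, the ligand that triggers death through Fas, rose from 81.7 to 196 CPM, and Srgn, the proteoglycan of cytotoxic granules, rose from 324 to 667 CPM. Gzmb, a principal granzyme, was at 65.3, 127, 274 and 254 CPM in WT and at 387, 320, 300 and 338 CPM in Yap-cKO libraries, and its log2 fold change of 0.9 ± 0.394 did not pass (adjusted p = 0.138). Perforin (Prf1) differed by 0.88 ± 0.532 and interferon gamma (Ifng) by 0.01 ± 0.677, with adjusted p of 0.26 and 0.997. Of 20 inhibitory receptor and exhaustion genes, 2 were called higher (median 1.01, and 0.02 after T-lineage scaling), namely the inhibitory receptor Btla (10.6 to 39.3 CPM) and the activation-induced nuclear receptor Nr4a2 (79.4 to 296 CPM). Pdcd1 (PD-1) was at 338, 129, 707 and 356 CPM in WT and at 434, 1260, 447 and 493 CPM in Yap-cKO libraries and did not pass (0.79 ± 0.51, adjusted p = 0.294). Tox, a factor of exhausted cells, differed by 0.98 ± 0.563 (adjusted p = 0.242). Gzmb, Prf1, Ifng, Pdcd1, Tox and Tcf7 were named after their values were seen.

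Called genes of type 1 differentiation and of cytokine receptors were all higher under TMM, and none was called higher after T-lineage scaling. Of 12 genes of type 1 factors and the IL-12 axis, 5 were called higher and 0 lower (median 1.03, and 0.09 after T-lineage scaling). Stat4, which carries the IL-12 signal (chromosome 1, 51987148 to 52107189, plus strand), was at 78.7, 87.1, 143 and 95.3 CPM in WT and at 501, 292, 194 and 286 CPM in Yap-cKO libraries. It rose by 1.66 ± 0.319 (adjusted p = 0.0185) with no overlap, and its T-lineage scaled difference of 0.53 ± 0.399 did not pass (adjusted p = 0.285). Eomes, a T-box factor of effector and memory cells, rose from 40.1 ± 15.6 to 102 ± 40.1 CPM, and the IL-18 receptor chains Il18r1 and Il18rap rose from 23.4 to 74.5 CPM and from 48.3 to 157 CPM.

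Of 15 genes of the common gamma chain and STAT5 pathway, 3 were called higher (median 0.96, and -0.01 after T-lineage scaling). Il7r, the receptor for a survival cytokine of naive and memory cells, was at 57.5, 98, 122 and 60.0 CPM in WT and at 547, 201, 143 and 347 CPM in Yap-cKO libraries (1.87 ± 0.431, adjusted p = 0.0245). Yap-cKO replicate 1 was the highest and replicate 3 the closest to WT. The kinase Jak1 rose from 432 to 1090 CPM and the cytokine receptor Il9r from 1.32 to 6.5 CPM. Of 15 naive and stem-like genes, 2 were called higher, Il7r and Slamf6 (89.9 to 211 CPM), and the list median was 0.84 and -0.23 after T-lineage scaling. Tcf7, the factor of stem-like cells, averaged 258 ± 133 CPM in WT against 566 ± 168 CPM in Yap-cKO libraries and did not pass (1.13 ± 0.419, adjusted p = 0.0902).

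Of 19 chemokine receptors and homing genes, 5 were called higher and 0 lower (median 1.06, and 0.07 after T-lineage scaling). Ccr2, the receptor for monocyte chemoattractants, was at 21.5, 34.1, 48.1 and 19.8 CPM in WT and at 122, 78.2, 120 and 210 CPM in Yap-cKO libraries (2.1 ± 0.373, adjusted p = 0.018), with no overlap. It was at 6.18 CPM in node CD8+ cells and at 1020 CPM in tumor CD45+ cells. The sum of the macrophage and monocyte list, part of which node CD8+ cells also held, was higher in every Yap-cKO library too. The T-lineage scaled difference of Ccr2 was 0.97 ± 0.461 (adjusted p = 0.0984). The integrin chain Itga4 rose from 110 to 264 CPM, and Ccr4, a receptor of helper and skin-homing cells, from 0.922 to 6.46 CPM.

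The other 4 lists held between 0 and 3 calls each, all higher, where 3.03% of all tested genes were called higher. Of 18 genes of NF-kappaB and the CBM complex, 2 were called higher (median 0.92, and -0.12 after T-lineage scaling), the subunit Rel (30.1 to 93.5 CPM) and the protease Malt1 (40.0 to 109 CPM). Of 18 immediate early genes, 2 were called higher, Nr4a2 and Egr2 (13.3 to 35.2 CPM), with a median of 0.77 and of -0.34 after T-lineage scaling. Of 15 TGF-beta pathway genes edgeR called 0, with 8 at an unadjusted p under 0.05 (median 0.65). The ligand-binding receptor Tgfbr2 differed by 1.22 ± 0.404 (adjusted p = 0.0687) and the shared mediator Smad4 by 0.41 ± 0.287 (adjusted p = 0.33). Of 9 tested Treg and helper genes, 3 were called higher (median 1.43, and 0.43 after T-lineage scaling), namely Cd40lg, Cd4 (0.791 to 4.13 CPM) and Gata3, a factor of T-cell development and type 2 responses (23.2 to 62.5 CPM).

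**Figure D4:**
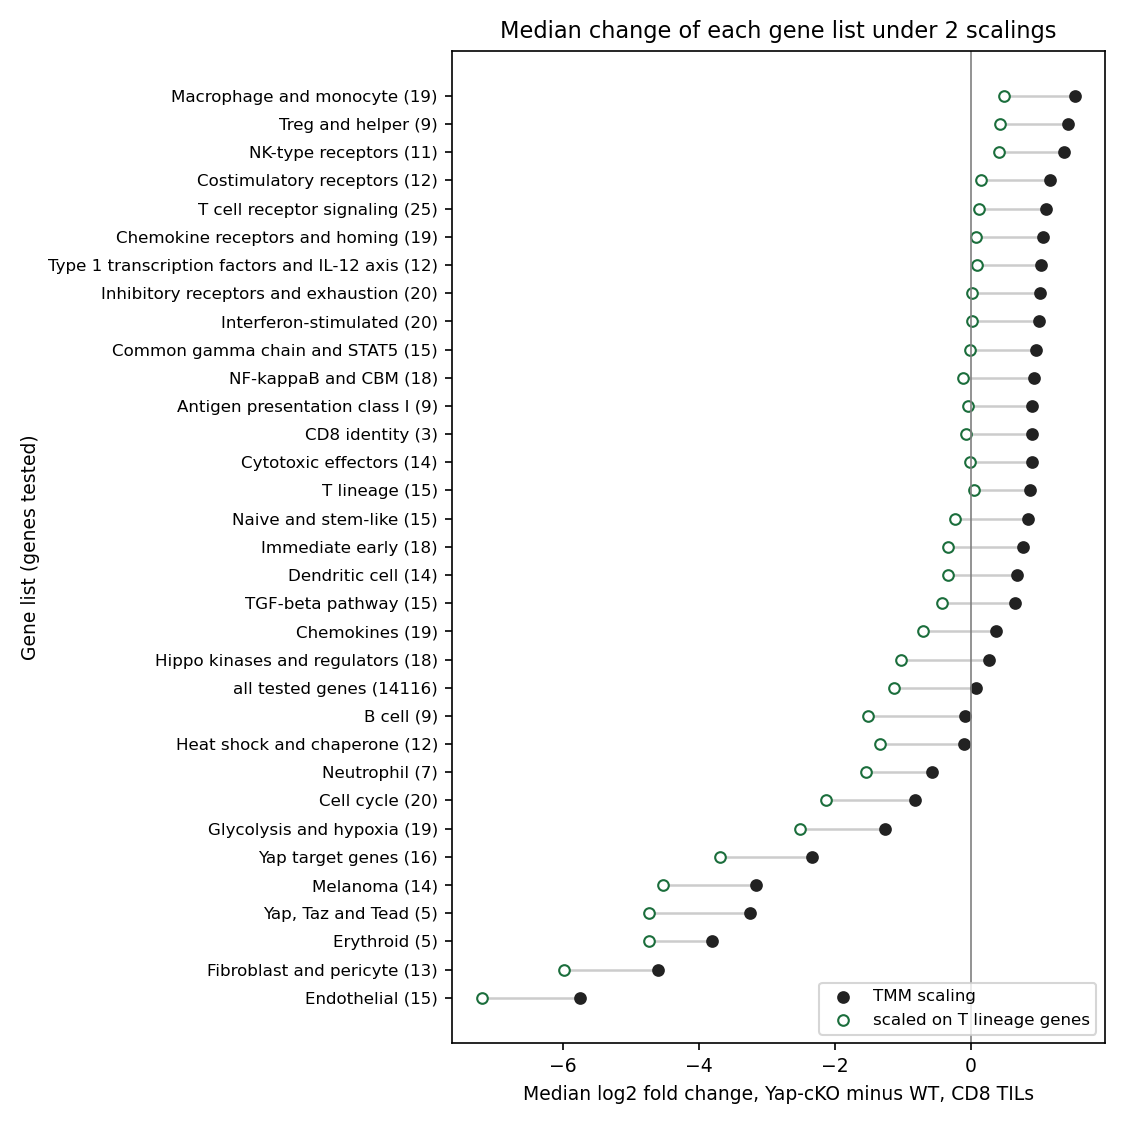
Median log2 fold change (Yap-cKO over WT) of each gene list and of all tested genes, with the number of tested genes in brackets, under TMM (filled) and under scaling on T-lineage counts (open). The list of T-cell receptor signaling moves from 1.1 to 0.12 between the scalings, and all tested genes from 0.08 to -1.13.

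Scaling on T-lineage counts moved log2 fold changes by a median of -1.23. On that scale 5860 genes were called lower (41.5%) and 6 higher (0.0425%). Of the 240 node T genes called higher under TMM, 194 remained above 0, with a median of 0.29 in place of 1.36. The 110 node T genes called lower all stayed below 0, with a median of -3.08 in place of -1.76. With WT replicates 3 and 4 as the only WT libraries the median over T-cell receptor signaling genes was 0.77 and over costimulatory receptors 0.77, beside 0.41 for T-lineage genes and 0.08 for all tested genes. Medians there were -2.78 for melanoma, -4.37 for endothelial, 1.35 for macrophage, -1.16 for glycolysis and -1.9 for Yap target genes, and no member of any of these lists was called.

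The 10 protein-coding node T genes called higher with the smallest p had varied roles. Mbnl1, a splicing regulator, was at 249, 299, 386 and 253 CPM in WT and at 1470, 980, 626 and 1030 CPM in Yap-cKO libraries (1.79 ± 0.293, adjusted p = 0.018), with no overlap. Cd96, a receptor related to CD226, rose from 68.3 to 224 CPM and was at 229 CPM in node CD8+ cells and 9.25 CPM in tumor CD45+ cells. Gpr174, a lysophosphatidylserine receptor, rose from 17.8 to 59.8 CPM, the endocytic receptor Ly75 from 25.2 to 69.4 CPM, and the deubiquitinase Cyld, a brake on NF-kappaB, from 75.4 to 213 CPM. The kinase Stk26 (1.76 ± 0.301), the adaptor Sh3kbp1 (1.47 ± 0.256), Trim34a of the tripartite motif family (1.48 ± 0.237) and the pheromone receptor gene Vmn2r97 (2.35 ± 0.43), which has close paralogs, rose too.

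Kdm6a, an X-linked histone demethylase that escapes X inactivation, was the remaining one. It was at 18, 29.5, 23.8 and 22.7 CPM in WT and at 131, 78.3, 51.6 and 64.4 CPM in Yap-cKO libraries (1.79 ± 0.308, adjusted p = 0.018). The 4 Y-linked genes, which were kept out of the test, summed to 76.1, 111, 133 and 4.44 CPM in WT and to 8.16, 5.43, 4.46 and 10.8 CPM in Yap-cKO libraries. WT replicate 4 was as low in Y-linked RNA as the Yap-cKO libraries, with Kdm6a at 22.7 CPM. Genotype held a share of 0.535 of the variance of the mean level of the Y-linked genes. In CD4+ TILs, scaled over all 48 libraries, Kdm6a was at 14.3, 10.2, 13.7 and 43.6 CPM in WT. It was at 108, 86.2, 10.4 and 53.6 CPM in Yap-cKO CD4+ TILs. The labels do not give the sex of the mice, and its part in Kdm6a and in the other gene results was not tested.

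The 10 node T genes called lower with the smallest p included Noct and Slc38a6, which averaged more than 1000 CPM in WT libraries. Noct, a circadian phosphatase gene (chromosome 3, 51224447 to 51251644, plus strand), was at 2260, 1540, 867 and 1560 CPM in WT and at 489, 318, 581 and 406 CPM in Yap-cKO libraries (-1.8 ± 0.324, adjusted p = 0.018) and at 320 CPM in node CD8+ cells. WT replicate 3, with the least melanoma RNA of its group, was the lowest WT library. The Yap-cKO libraries did not follow the melanoma sum throughout. Replicate 3, with the most melanoma RNA of that group, was the highest, but replicate 1, with the least, was above replicates 2 and 4. Slc38a6, a transporter of the amino acid family SLC38, fell from 1050 to 303 CPM, the alpha-tubulin Tuba1a from 857 to 289 CPM, and the cyclophilin Ppic from 119 to 33.7 CPM. Sox4, a transcription factor of progenitor cells, fell from 26.7 to 8.19 CPM and was at 33.4 CPM in node CD8+ cells. The TGF-beta coreceptor Eng (-3.54 ± 0.644), the tetraspanin Tspan9 (-3.24 ± 0.56), the actin-binding Tagln (-2.46 ± 0.448), the collagen hydroxylase P3h1 (-1.82 ± 0.299) and Bod1 (-1.33 ± 0.235), which acts in chromosome alignment, fell as well.

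Interferon-stimulated genes were higher in part. Of 20, 4 were called higher and 0 lower (median 1, and 0.01 after T-lineage scaling). Ifit1, which binds foreign RNA, was at 5.44, 14.4, 8.78 and 6.09 CPM in WT and at 120, 39.4, 16.5 and 49.6 CPM in Yap-cKO libraries (2.69 ± 0.571, adjusted p = 0.0207). Yap-cKO replicate 1 was the highest, and replicate 3 lay closest to WT without overlap. Ifit3 rose from 38 to 113 CPM, the antiviral GTPase Mx1 from 15.2 to 41.6 CPM, and the guanylate-binding protein Gbp4 from 62.2 to 229 CPM. Outside that list, Gbp10 (2.74 ± 0.625) and the interferon-inducible Ifi207 (2.76 ± 0.48) and Ifi209 (2.44 ± 0.44) rose. Of 9 class I antigen presentation genes edgeR called 0, with 7 at an unadjusted p under 0.05 (median 0.9). The heavy chain genes H2-D1 and H2-K1, which could share reads, differed by 0.9 ± 0.361 and 0.96 ± 0.363 (adjusted p = 0.113 and 0.0973).

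Genes of macrophages were among those with the largest increases, with Fcrls, Ccl8 and Folr2 at the top of the protein-coding genes at 10 CPM or more in Yap-cKO whose genotypes did not overlap. Of 19 macrophage and monocyte genes, 10 were called higher and 0 lower. The median was 1.53, and 0.49 after T-lineage scaling, while the sum of the list over the T-lineage counts had a log2 ratio of -0.27, the opposite sign. That sum is not a measure of macrophage content alone, since node CD8+ cells also held RNA of the list. C1qa, a complement chain made by macrophages, was at 15.8, 14.1, 27.7 and 12.4 CPM in WT and at 52.4, 155, 120 and 40.6 CPM in Yap-cKO libraries (2.4 ± 0.456, adjusted p = 0.0185). Its partners C1qb and C1qc rose from 48.7 to 226 CPM and from 30.0 to 138 CPM. These 3 were under 1 CPM in node CD8+ cells and at 378, 1230 and 529 CPM in tumor CD45+ cells. The mannose receptor Mrc1 (2.65 ± 0.604), the folate receptor Folr2 (2.89 ± 0.553), the Fc receptor Fcgr3 (1.61 ± 0.327) and its relative Fcrls (3.07 ± 0.627) rose too.

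Lpl, lipoprotein lipase (chromosome 8, 68880491 to 68907448, plus strand), was at 16.3, 10.2, 8.24 and 5.89 CPM in WT and at 57.7, 49.5, 60.5 and 54.5 CPM in Yap-cKO libraries. It rose by 2.45 ± 0.312 (adjusted p = 0.018) and was also called with WT replicates 3 and 4 as the only WT libraries (2.99, adjusted p = 0.0328). The 4 Yap-cKO libraries lay between 49.5 and 60.5 CPM, against 3.09 CPM in node CD8+ cells and 334 CPM in tumor CD45+ cells. Of 19 chemokines, 6 were called higher and 1 lower. Ccl8, which attracts monocytes, was at 14.4, 3.09, 4.29 and 4.3 CPM in WT and at 26.8, 121, 29.4 and 38.5 CPM in Yap-cKO libraries (3.06 ± 0.648, adjusted p = 0.0207). Its relatives Ccl7 and Ccl12 rose from 26 to 97.7 CPM and from 4.49 to 22.9 CPM, and these 3 were under 1 CPM in node CD8+ cells. Cxcl12, a stromal chemokine, fell from 38.2 to 0.363 CPM, with its highest value, 124 CPM, in WT replicate 2.

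Lists of other white blood cells held a single call. Cd86, a ligand for CD28 on antigen-presenting cells, rose from 13.8 to 47.2 CPM as the 1 gene called among 14 dendritic cell genes (median 0.67). Of 7 tested neutrophil genes and 9 tested B cell genes edgeR called 0, with 0 and 4 at an unadjusted p under 0.05. The calprotectin genes S100a8 and S100a9 differed by -2.24 ± 1.25 and -2.07 ± 1.31. The antibody heavy chain Ighm and the B-cell receptor chain Cd79b differed by 0.81 ± 0.318 and 0.77 ± 0.33.

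Called genes of vessels and stroma were all lower in Yap-cKO CD8 TILs. Of 15 endothelial genes, 14 were called lower (median -5.75). Flt1, a VEGF receptor, was at 79.5, 402, 71.2 and 11.8 CPM in WT and at 1.26, 1.16, 3.03 and 1.77 CPM in Yap-cKO libraries (-6.28 ± 1.01, adjusted p = 0.018). The mucin-like Emcn (-5.73 ± 0.895), the tight junction gene Cldn5 (-5.96 ± 0.92) and the secreted Egfl7 (-4.65 ± 0.752) fell with it. Of 13 tested fibroblast and pericyte genes, 10 were called lower (median -4.61). Pdgfrb, a growth factor receptor of pericytes, was at 12.4, 151, 14.3 and 10.9 CPM in WT and at 0.464, 0.969, 0.515 and 0.212 CPM in Yap-cKO libraries (-6.42 ± 1.08, adjusted p = 0.018). The collagen genes Col3a1 (-5.57 ± 1.07) and Col6a1 (-6.49 ± 1.24) and the proteoglycan Cspg4 (-5.79 ± 1.13), which melanoma cells also carry, fell too. WT replicate 2 was the highest library for each of these 8 genes.

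Of protein-coding genes at 10 CPM or more in WT whose genotypes did not overlap, the 10 called lower with the largest fold changes, Ccn2 and Cxcl12 among them, were each under 1 CPM in node CD8+ cells. Pcdh12, an endothelial protocadherin, was at 4.24, 46.3, 8.64 and 1.13 CPM in WT and at 0, 0, 0.172 and 0.0708 CPM in Yap-cKO libraries, where no Yap-cKO library held more than 3 of its counts. The matrix genes Col6a3 (58.1 to 0.401 CPM) and Vwa1 (70.9 to 0.75 CPM), the sialomucin Podxl (52.6 to 0.542 CPM), the vascular transcription factor Sox7 (15.4 to 0.153 CPM), the activin subunit Inhbb (16 to 0.12 CPM), the Notch-related Dlk1 (13 to 0.139 CPM) and Depp1 (41.5 to 0.43 CPM) were the others.

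Called melanoma and red cell genes were all lower. Of 14 tested melanoma genes, 8 were called lower and 14 had an unadjusted p under 0.05 (median -3.16). Mitf, the master factor of pigment cells, was at 149, 120, 41.6 and 71.2 CPM in WT and at 2.78, 11.2, 25.5 and 11.6 CPM in Yap-cKO libraries (-2.9 ± 0.609, adjusted p = 0.0204). Pax3, a neural crest factor, fell from 66.5 to 8.02 CPM, the melanosome exchanger Slc24a5 from 323 to 31.8 CPM, and the channel Trpm1 from 234 to 40.2 CPM. Of 5 tested erythroid genes, 4 were called lower. The globin Hbb-bs was at 297, 103, 381 and 697 CPM in WT and at 2.98, 12.5, 3.6 and 71.1 CPM in Yap-cKO libraries (-4.04 ± 1.04, adjusted p = 0.0333). Hba-a1 and Hba-a2, near-identical copies whose reads could be split between them, changed by -3.59 ± 1.06 and -3.81 ± 1.04, and Alas2, which makes heme in red cells, by -4.17 ± 1.18.

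**Figure D5:**
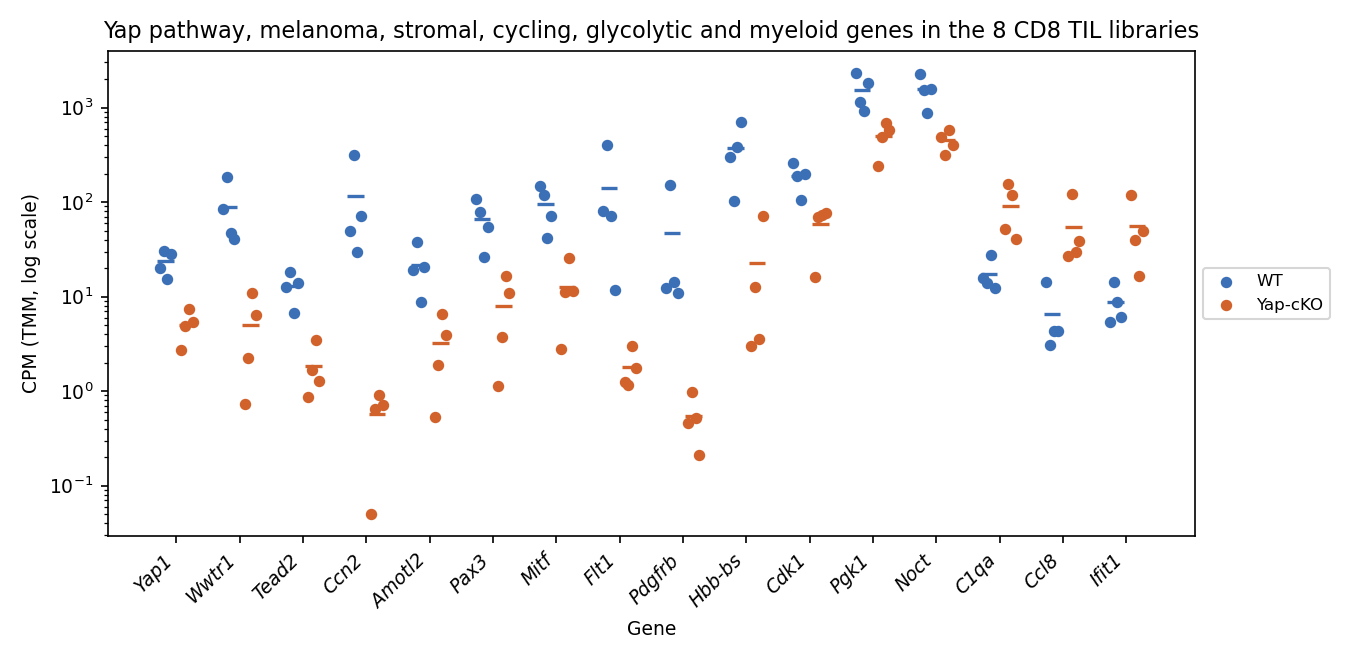
CPM (log axis) of genes of the Yap pathway, melanoma, stroma, blood, cell cycle, glycolysis and myeloid cells in each WT (blue) and Yap-cKO (orange) CD8 TIL library, with the group mean as a short line and a CPM of 0 drawn at 0.05 (Ccn2 in Yap-cKO replicate 1). C1qa, Ccl8 and Ifit1 are higher in Yap-cKO, and the other genes shown are lower.

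Called genes of the cell cycle and of glycolysis were all lower in Yap-cKO CD8 TILs. Of 20 cell cycle genes, 4 were called lower and 0 higher (median -0.82). Cdk1, the mitotic kinase, was at 262, 189, 106 and 197 CPM in WT and at 16.2, 69.8, 72.5 and 76.3 CPM in Yap-cKO libraries (-1.68 ± 0.453, adjusted p = 0.0383). Aurka, a kinase of the spindle poles, fell from 66.1 to 18.6 CPM, the cyclin Ccnb1 from 195 to 62.3 CPM, and Rrm2, which makes deoxynucleotides, from 309 to 137 CPM. Of 19 glycolysis and hypoxia genes, 10 were called lower and 0 higher (median -1.27). Pgk1, a glycolytic enzyme, was at 2330, 1140, 914 and 1810 CPM in WT and at 243, 489, 678 and 576 CPM in Yap-cKO libraries (-1.64 ± 0.389, adjusted p = 0.0268). WT replicate 3 was the lowest WT library and Yap-cKO replicate 1 the lowest of all, as for the melanoma sum. Hexokinase Hk2 fell from 90.6 to 25 CPM, the phosphofructokinase subunit Pfkl from 408 to 168 CPM, and the hypoxia-induced growth factor Vegfa from 67.7 to 20.2 CPM. Of 12 heat shock genes, 2 were called lower, Hspb1 (37 to 7.02 CPM) and the mitochondrial Hspe1 (354 to 142 CPM). Melanoma RNA moved with these lists, and its part in them was not tested.

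In CD8+ cells of the draining lymph node the same contrast called 2 of 12645 tested genes (0.0158%), the processed pseudogenes Rps3a3 and Gm7600, with 118 at an unadjusted p under 0.05 (0.933%). T-lineage sums there were alike in range, between 8470 and 12800 CPM in WT and between 7410 and 11800 CPM in Yap-cKO mice on the scale of all 48 libraries. Of the genes called in CD8 TILs, 1050 were tested in the node. The 388 called higher in tumors had a median log2 fold change of 0.24 in the node, and the 662 called lower had one of -0.03. The difference between the tumor and node contrasts, tested as an interaction over 16 libraries, called 63 of 14927 genes (0.422%), all lower in Yap-cKO TILs, with 2333 at an unadjusted p under 0.05 (15.6%). It called 0 genes without any single WT node library, without Yap-cKO node replicate 3 or without Yap-cKO TIL replicate 1, 2 or 4, and between 3 and 414 genes without any other library, the most without WT TIL replicate 3. No gene called higher in CD8 TILs was among them. Of the 63, 6 were node T genes, 26 were shared, 25 were seen in tumor CD45+ cells and not the node, and 6 in neither. S1pr3, a vascular lipid receptor (-7.21), Vwa1 (-7.27), Ppic (-2.36), the desaturase Scd1 (-3.44) and the vascular progenitor marker Cd34 (-6.73) had the smallest p of the protein-coding genes, each with an adjusted p of 0.0298. Cd34 was at 101, 413, 148 and 35.4 CPM in WT and at 1.92, 1.49, 3.83 and 6.37 CPM in Yap-cKO libraries among CD8 TILs.

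In CD4+ TILs the same contrast called 1139 of 14200 genes (8.02%). Both populations called 654 genes, 38.1% of the calls in CD8 TILs and 57.4% of those in CD4 TILs, and 653 of these had the same direction. Melanoma sums, scaled over all 48 libraries, were between 6120 and 19000 CPM in WT and between 185 and 2510 CPM in Yap-cKO CD4 TILs, so melanoma RNA moved with genotype there too, and the labels do not tie CD4 and CD8 TIL libraries to mice. The interaction of cell type and genotype over the 16 TIL libraries called 0 of 15190 genes with edgeR, with 525 at an unadjusted p under 0.05 (3.46%), and 45 with DESeq2. Genes called higher in CD8 TILs had a median of 1.46 there and of 1.07 in CD4 TILs. Those of them seen in tumor CD45+ cells and not in the node had a median of 2.12 in CD8 TILs and, for the 35 tested, of -0.48 in CD4 TILs. C1qa, Ccl7 and Ccl12 differed by -0.48, -1.4 and -1.79 in CD4 TILs and did not pass there (adjusted p = 0.739, 0.2 and 0.0772). Yap1 was at 27.3, 21.6, 14.8 and 18.7 CPM in WT and at 1.63, 2.85, 5.59 and 2.39 CPM in Yap-cKO CD4 TILs (-2.58, adjusted p = 0.00973).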

How the data were processed

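RNA-seq libraries were made with a SMART-Seq v4 low-input kit from sorted cells. Reads were trimmed and quantified by the authors with Salmon 0.9.1 on mm10 transcripts, and 1 table of expected counts, TPM and effective lengths per transcript was deposited for each library. The deposited expected counts were summed per gene of GENCODE release M21 (111787 of 112092 transcripts matched) and rounded. Deposited TPM and effective lengths were used only for average transcript length offsets. Chromosome Y genes and Xist (728) were left out of tests. Strand was not used, so overlapping, antisense and paralogous genes remain uncertain. The study's own model (DESeq2) was replaced by edgeR 4.0.16 in R 4.3.3 (TMM, quasi-likelihood, 4 WT against 4 Yap-cKO CD8 TIL libraries, no covariate, at least 10 counts in at least 4 libraries), with the study's thresholds (adjusted p under 0.05, absolute log2 fold change above 1). The node and CD4 TIL contrasts were fitted alike, and interactions over 16 libraries each. Alternatives were DESeq2 1.42.0, limma 3.58.1 voom with quality weights, other scalings, filters, covariates and library sets, and each library left out. The use of WT replicates 3 and 4 alone and the T-lineage scaling of list counts were added after the data were seen, and Thy1 was then taken out of the fibroblast list. The lists and the comparison were chosen with earlier results of these data known.

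Named genes were Yap1 and the CD8 markers, the 10 called higher and 10 called lower protein-coding genes with the largest fold changes among those that did not overlap and averaged at least 10 CPM in the higher group, up to 4 called members of each list by p (the 2 most abundant where none was called), the 10 node T genes with the smallest p in each direction, and the 5 interaction genes with the smallest p. Rps3a3, Gm7600, Retnla, Lyz1, Vmn2r96, Trav3-3, Gzmb, Prf1, Ifng, Pdcd1, Tox and Tcf7 were added after their values were seen. On simulated CD8 TIL counts for 14116 genes, edgeR called 44% of 50 genes changed by a log2 fold of 1.5, 70% of those changed by 2 and 96% of those changed by 3. It also called 13 unchanged genes. The changed genes were drawn from the more abundant ones, and genes were simulated independently, without shared melanoma or T-lineage content. These shares therefore do not cover genes of low counts. Intervals between libraries cover the spread of these samples, and each library's 3-count level covers counting error only. No replicate pair of CD8 TIL libraries was identical.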

Additional observations from a re-analysis of the deposited data

Results flagged for a closer look

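Of 310 groups of 4 CD8 TIL libraries (1 gene or marker sum in 1 genotype), 46 (14.8%) held a library flagged by Dixon's test. Its gap to its nearest neighbor exceeded the 95% critical value, which chance gives in about 1 of 20 independent groups of normal values. The CPM were not log-transformed, the genes move together and many were named for large differences, so that rate does not apply to these groups. In WT replicate 2 the high values were those of stromal and endothelial genes. Col3a1 was at 359 CPM, Ccn2 at 318, Eng at 261, Col6a3 at 194, Vwa1 at 189, Podxl at 164, Col6a1 at 158, Tspan9 at 154, Pdgfrb at 151, Depp1 at 126, Cxcl12 at 124, Cspg4 at 59.1, Pcdh12 at 46.3 and Arhgef17 at 14.9 CPM. The fibroblast and pericyte sum of that library was 1500 CPM.

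WT replicate 3, the WT library with the most T-lineage RNA, stood above the other WT libraries for T-cell genes. Fasl was at 152 CPM there, Klrk1 at 127, Themis at 81.8, Rel at 47.3 and Gpr174 at 26 CPM, and the melanoma gene Trpm1 was low at 88.5 CPM. WT replicate 1 was high for Ccl8 at 14.4 CPM and low for Cd40lg at 0.4 CPM.

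Yap-cKO replicate 1, with the least melanoma and the most T-lineage RNA, was high for Jak1 at 1620 CPM, Stk4 at 577, Nfatc3 at 322, Ifit3 at 199, Gata3 at 88.5, Btla at 79.2, Trim34a at 75.8 and Cd4 at 6.56 CPM. Its T-lineage sum was 8360 CPM, and its Cdk1 level was low at 16.2 CPM. Yap-cKO replicate 2 was high for Pdcd1 at 1260 CPM, Ccl8 at 121 CPM, the T-cell receptor segment Trav3-3 at 120 CPM and the CD8 identity sum at 3710 CPM. Yap-cKO replicate 3 was high for Pfkl at 255 CPM, Vegfa at 33.0 CPM, Cd79b at 21 CPM and Eng at 18.1 CPM. Yap-cKO replicate 4 was high for red cell genes, with Hba-a2 at 93.6 CPM, Hbb-bs at 71.1 CPM, Hba-a1 at 47.1 CPM, Alas2 at 1.13 CPM and an erythroid sum of 232 CPM.

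The genotype difference was lower in tumor than in node CD8+ cells for 14 named genes by edgeR's interaction test over 16 libraries. The difference of the log2 fold changes (tumor minus node) was -10.84 for Ccn2, -8.31 for Cxcl12, -7.27 for Vwa1, -7.21 for S1pr3, -6.92 for Pdgfrb, -6.73 for Cd34, -6.49 for Flt1, -4.5 for Egfl7, -3.9 for Eng, -3.44 for Scd1, -2.36 for Ppic, -2.2 for Sox4, -2.18 for Slc38a6 and -2.01 for Noct. The interaction called 0 genes without some single libraries and up to 414 without others. The melanoma list summed to between 15.7 and 26.9 CPM in the node libraries, against 50.7 to 15100 CPM in CD8 TILs on the same scale. Its part in these differences was not tested.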

How the results depend on the processing

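edgeR's 1718 calls (428 higher, 1290 lower) fell to 1 (0 higher, 1 lower) with WT replicate 4 as the only WT library, with a Y-linked covariate, with a macrophage covariate or with the replicate block, to 2 (1 higher, 1 lower) with WT replicates 3 and 4 alone, and to 0 (0 higher, 0 lower, 129 at an unadjusted p under 0.05) with the melanoma and stromal covariate. Scaling on T-lineage counts gave 5866 calls, 6 higher and 5860 lower. Genes higher numbered 800 with DESeq2, 658 in a fit of all 48 libraries and 715 with voom. With each library left out, calls ranged from 1 to 2582, higher calls from 0 to 1107 and lower calls from 1 to 1475, while the number of genes at an unadjusted p under 0.05 ranged from 3673 to 5447. The cause of these changes was not tested.

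No pairing of samples by replicate number was detected, and 4 correlations cannot exclude one. Deviations of WT and Yap-cKO libraries with the same number correlated at -0.374, -0.062, -0.303 and -0.209, and 0 of 4 numbers had its own partner as the best match. The block left 1 gene, Rps3a3, called, and 1717 of the 1718 genes kept an unadjusted p under 0.05.

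Yap1 stayed lower in every setting but no longer passed at -2.47 (WT replicate 4 alone), -2.09 (WT replicates 3 and 4), -2.52 (Y-linked covariate), -2.36 (macrophage covariate), -1.03 (melanoma and stromal covariate) and -2.26 (replicate block), nor at -2.19 without Yap-cKO replicate 2. It ranged from -2.45 to -2.01 with single libraries left out.

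Of 128 named genes called, DESeq2 gave the same direction for all 123 with an adjusted p, and no direction turned under any setting but 2. With the melanoma and stromal covariate 16 called genes turned, Gbp10 to -0.04, Srgn to -0.22, Btla to -0.12, Nr4a2 to -0.88, Rel to -0.2, Col6a3 to 0.35, Depp1 to 0.17, Wwtr1 to 0.23, Arhgef17 to 0.84, Amotl2 to 0.32, Wwc2 to 0.08, Pax3 to 0.2, Slc24a5 to 0.04, Col6a1 to 0.12, Cspg4 to 0.68 and Ccnb1 to 0.12. Srgn turned with T-lineage scaling, to -0.04. Of the genes not called, those turned by the melanoma and stromal covariate were Cd8a to -0.51, Cd3e to -0.35, H2-D1 to -0.11, H2-K1 to -0.28, Smad4 to -0.16, Gzmb to -0.26, Prf1 to -0.67, Ifng to -3.24, Pdcd1 to -1.09 and Tox to -0.1. T-lineage scaling turned Cd8a to -0.08, Cd8b1 to -0.11, Ighm to -0.15, Cd79b to -0.31, H2-D1 to -0.05, Smad4 to -0.83, Prf1 to -0.02, Ifng to -0.9 and Pdcd1 to -0.17, and the macrophage covariate turned Prf1 to -0.87, Ifng to -0.58, Pdcd1 to -0.82 and Tox to -1.49. Ifng also turned to -0.02 with DESeq2 and with all 48 libraries, to -0.06 without a filter, to -1.09 with the Y-linked covariate, to -1.33 with WT replicate 4 alone and to -0.63 with WT replicates 3 and 4, and ranged from -0.37 to 1.05 with single libraries left out.

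The tissue interaction (63 calls) gave 726 with DESeq2, 0 with the replicate block, 0 with a term for each combination of genotype and replicate number and 0 to 414 with single libraries left out. The cell type interaction (0 calls) gave 45 with DESeq2, 4 with that term and up to 6 with single libraries left out, the 6 without Yap-cKO CD4 TIL replicate 3. Over T-lineage counts, the log2 ratio of marker sums moved to -0.04 for CD8 identity, -6.02 for fibroblasts, -0.27 for macrophages, -0.18 for dendritic cells and -0.31 for B cells. With classes set at 5 CPM, lower calls were 73 among node T genes, 220 among shared genes and 647 among genes in neither, and higher calls 74 among tumor CD45+ genes and 29 among genes in neither.

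Each genotype had 4 libraries, and 3 counts were at most 0.237 CPM. In simulated data edgeR called 44% of the more abundant genes changed by a log2 fold of 1.5. Genotype, melanoma RNA and T-lineage share cannot be told apart. Y-linked RNA was high only in WT replicates 1, 2 and 3 (76.1, 111 and 133 CPM). It was at 4.44 CPM in WT replicate 4 and between 4.46 and 10.8 CPM in Yap-cKO libraries. With a single WT library this low, genotype and Y-linked RNA cannot be cleanly told apart for any gene.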

Other observations

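The smallest p in CD8 TILs belonged to Rps3a3, a processed pseudogene of a ribosomal protein gene (chromosome 13, 108670603 to 108671397, plus strand). It was at 71.7, 56.7, 128 and 102 CPM in WT and at 1.06, 1.87, 1.66 and 2.12 CPM in Yap-cKO libraries (log2 fold change -5.73 ± 0.366, edgeR adjusted p = 0.000236). In node CD8+ cells it was between 94.7 and 145 CPM in WT and between 0.748 and 1.8 CPM in Yap-cKO libraries (-6.44, adjusted p = 8.68e-05), and in CD4+ TILs it differed by -6.03 (adjusted p = 0.000522). Gm7600, another processed pseudogene (chromosome 8, 11683459 to 11684243, minus strand), was at 0.16, 0, 0.201 and 0.331 CPM in WT and at 2.85, 5.36, 4.86 and 9.28 CPM in Yap-cKO CD8 TILs (5.0 ± 0.778, adjusted p = 0.018). It differed by 6.17 in the node (adjusted p = 0.00593) and by 5.67 in CD4+ TILs (adjusted p = 0.00623). The difference was not limited to T cells. In tumor CD45+ cells, scaled over all 48 libraries, Gm7600 was at 0.124, 0.336, 0 and 0 CPM in WT and at 2.97, 3.15, 1.77 and 3.13 CPM in Yap-cKO libraries. Both are near copies of other genes, so their counts are uncertain.

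Besides Gm7600, 5 genes were called higher when libraries were scaled on T-lineage counts. Retnla, a secreted protein of alternatively activated macrophages, was at 0.56, 2.64, 1.21 and 0.662 CPM in WT and at 302, 121, 173 and 1.91 CPM in Yap-cKO libraries, with replicate 4 inside the WT range. It was at 0.0294 CPM in node CD8+ cells and 179 CPM in tumor CD45+ cells, and differed by 0.51 in CD4+ TILs (adjusted p = 0.874). Lyz1, a lysozyme, was at 25.9, 16.1, 46.5 and 1.84 CPM in Yap-cKO libraries and at most 2.09 CPM in WT. Trav3-3, a variable segment of the T-cell receptor alpha chain, was at 1.52, 1.99, 3.02 and 6.82 CPM in WT and at 17, 120, 13.9 and 13.3 CPM in Yap-cKO libraries. Gbp10 differed by 1.67 ± 0.630 on that scale (adjusted p = 0.0461) and the pheromone receptor gene Vmn2r96, which has close paralogs, by 1.74 ± 0.657 (adjusted p = 0.0469).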
